A study of Mus musculus with 12 samples.

Results

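Leydig cells are the androgen-making cells between the cords of the testis, and RNA of 8 of their genes was followed in libraries of sorted mouse germ cells. The genes were Star, Cyp11a1, Cyp17a1, Hsd3b1, Insl3, Lhcgr, Fdx1 and Nr5a1. They were chosen by name, through their Ensembl identifiers in GENCODE M21, and all 8 were found among the 35666 genes of the deposited table. The libraries came from gonocytes, the germ line cells of a testis before and just after birth, sorted on postnatal day 0 (P0) from mice that carry the Mvh-Venus germ cell reporter. Of these, 3 libraries were from Morc1 heterozygotes (het, Morc1 +/-) and 3 from Morc1 knockouts (KO, Morc1 -/-). No wild-type library was among them, so the controls also lack one Morc1 allele. Another 6 samples listed at day 3 were not analysed here. Nothing in the labels says whether replicates came from separate animals or pools, so the tests measure the spread between these samples.

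In a Leydig cell, luteinizing hormone acts on its receptor LHCGR, and cholesterol is carried by STAR to the inner mitochondrial membrane. There CYP11A1 cuts its side chain with electrons that reach it through ferredoxin (FDX1). HSD3B1 and CYP17A1 carry the product on toward androgens, INSL3 is a peptide hormone needed for descent of the testis, and NR5A1 is the nuclear receptor that switches on much of this set. Gonocytes sit inside the cords next to Sertoli cells and are not steroid-making cells, so these genes serve as a check of what else was sorted with them.

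The libraries held 28363683 to 32816861 reads in genes. Values are normalized counts, that is, reads divided by one size factor per library, and are given in the order of replicates 1, 2 and 3 of each genotype. Morc1 itself had 7248, 7485 and 4126 normalized counts in het and 1360, 1343 and 1794 in KO, which follows the labels. Its lowest het value was thus that of het replicate 3. The germ cell genes Ddx4 and Dazl were abundant in every library, at 17605 to 31038 and 48158 to 72571 normalized counts.

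The upstream sequences of 3 of the 8 genes are shown, 2 with a wide gap in the pattern described below and 1 with a narrow gap. Insl3 and Hsd3b1 were 35.3 and 35.1 times as high in het replicate 3 as in the next library, and Lhcgr 1.77 times. Whether these sequences bear on that pattern was not tested. They are the bases before the RefSeq start site, cut where the first annotated exon begins, 5′ to 3′ on the strand of the gene, on GRCm38.p6. Capitals mark a match to CAAGGTC, one form of the core letters of the NR5A1 site, or to AGGTCA, the half-site of many nuclear receptors. Other forms of the NR5A1 core were not searched. Insl3 is at chr8:71689002-71689213 (plus strand), Hsd3b1 at chr3:98859795-98860044 (minus strand) and Lhcgr at chr17:88792015-88792264 (minus strand).
Insl3: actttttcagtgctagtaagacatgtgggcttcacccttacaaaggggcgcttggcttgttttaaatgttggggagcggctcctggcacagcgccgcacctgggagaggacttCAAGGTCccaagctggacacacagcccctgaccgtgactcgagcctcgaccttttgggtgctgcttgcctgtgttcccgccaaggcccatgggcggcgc
Hsd3b1: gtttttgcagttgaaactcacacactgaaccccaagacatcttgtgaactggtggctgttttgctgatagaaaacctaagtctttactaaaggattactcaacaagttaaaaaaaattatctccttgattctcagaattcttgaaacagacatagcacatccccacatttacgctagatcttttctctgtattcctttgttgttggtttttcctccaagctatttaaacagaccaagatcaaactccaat
Lhcgr: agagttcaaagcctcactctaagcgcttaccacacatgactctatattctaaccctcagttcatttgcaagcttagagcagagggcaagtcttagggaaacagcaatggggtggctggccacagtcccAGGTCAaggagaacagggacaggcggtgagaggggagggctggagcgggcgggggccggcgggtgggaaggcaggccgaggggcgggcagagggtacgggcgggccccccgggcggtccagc
RefSeq sequences were found for 5 of the 8 genes, with 6 start sites in all. Star, Cyp17a1 and Nr5a1 had no entry. In the 250 bases before each start, on both strands, CAAGGTC was found at 1 of the 6 starts (Insl3, 137 to 131 bases before it), and AGGTCA at 2 (Lhcgr, 122 to 117 bases before it, and one start of Cyp11a1). Of 32851 promoters of the same length, 3.32% held CAAGGTC and 14.02% held AGGTCA. The longer CAAGGTCA, which overlaps both, was found at 0 of the 6 starts and in 1.33% of all promoters. Both starts of Cyp11a1 lay 8387 and 8541 bases from the start of the GENCODE gene, so its sequence is not shown.

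All 8 genes had their highest value in the same library, het replicate 3, as did 21.4% of the 26005 genes averaging 10 or more. The gap to the next library was wide for the 3 enzymes Cyp11a1, Hsd3b1 and Cyp17a1 and for Insl3, smaller for Star, and narrow for Nr5a1, Lhcgr and Fdx1. Which cells this RNA came from was not tested. More Leydig cells and more RNA per Leydig cell also cannot be told apart in such bulk libraries.

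Cyp11a1 (ENSMUSG00000032323, chromosome 9 from 58006411 to 58027023, plus strand), the side-chain cleavage enzyme, had 277, 300.4 and 10074 normalized counts in het and 136, 332 and 292 in KO. Het replicate 3 was thus 30.4 times the highest of the other libraries, among which the largest value was 2.45 times the smallest. Hsd3b1 (ENSMUSG00000027871, chromosome 3 from 98852194 to 98859794, minus strand), which converts pregnenolone to progesterone, had 78.2, 232 and 8127 in het and 6.93, 228 and 63.7 in KO. Its value in het replicate 3 was 35.1 times the next highest. Hsd3b1 was 88.7% identical to Hsd3b6 over 70.5% of its transcript. Hsd3b6 itself had between 19.1 and 51.9 normalized counts, with 21.5 in het replicate 3, so the excess there was counted to one of these paralogs and not to the other.

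Cyp17a1 (ENSMUSG00000003555, chromosome 19 from 46667165 to 46673172, minus strand), whose hydroxylase and lyase steps lead to androgens, had 9.54, 43.5 and 3469 normalized counts in het and 0.989, 84.7 and 14.7 in KO. With a value 40.9 times the next highest, it had the widest gap of the 8 genes. It also varied most among the other 5 libraries, by a factor of 85.6. Insl3 (ENSMUSG00000079019, chromosome 8 from 71689214 to 71690575, plus strand), the hormone of testis descent, had 0.954, 8.69 and 474 in het and 0.989, 13.4 and 10.8 in KO. In reads, these are 1, 9 and 486 and 1, 13 and 11. A count of 1 read has an exact Poisson 95% interval of 0.0253 to 5.57 reads, which covers counting error only. The second exon of Insl3, with 404 of its 623 exonic bases, is also annotated as an exon of Jak3 on the same strand. How reads there were assigned is not given in the sources used here, so the level of Insl3 may be understated. Jak3 had 240 normalized counts in het replicate 3 and 112 to 284 in the others.

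Star (ENSMUSG00000031574, chromosome 8 from 25806555 to 25815982, plus strand), the cholesterol carrier, had 411, 495 and 2777 normalized counts in het and 365, 416 and 530.1 in KO. Its ratio to the next highest library was 5.24, below those of Cyp11a1, Hsd3b1 and Cyp17a1. Fdx1 (ENSMUSG00000032051, chromosome 9 from 51943306 to 51963556, minus strand), which serves mitochondrial P450 enzymes in many tissues, had 1838, 1907 and 2649 in het and 1854, 1742 and 1611 in KO. Here het replicate 3 was 1.39 times the next highest, and the other libraries stayed within a factor of 1.184 of each other.

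Lhcgr (ENSMUSG00000024107, chromosome 17 from 88716481 to 88791990, minus strand), the hormone receptor, had 75.3, 55.1 and 444 normalized counts in het and 121, 63.0 and 251 in KO. It departed from the enzymes in that KO replicate 3 was also high. Nr5a1 (ENSMUSG00000026751, chromosome 2 from 38692656 to 38714542, minus strand), the transcription factor, had 679, 383 and 1405 in het and 305, 516 and 365 in KO. Sertoli cells also express Nr5a1. Nr5a1os, on its opposite strand, had 52.7 normalized counts in het replicate 3 and 0 to 6.20 in the others, and strand handling is not given in the sources used here.

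**Figure D1:**
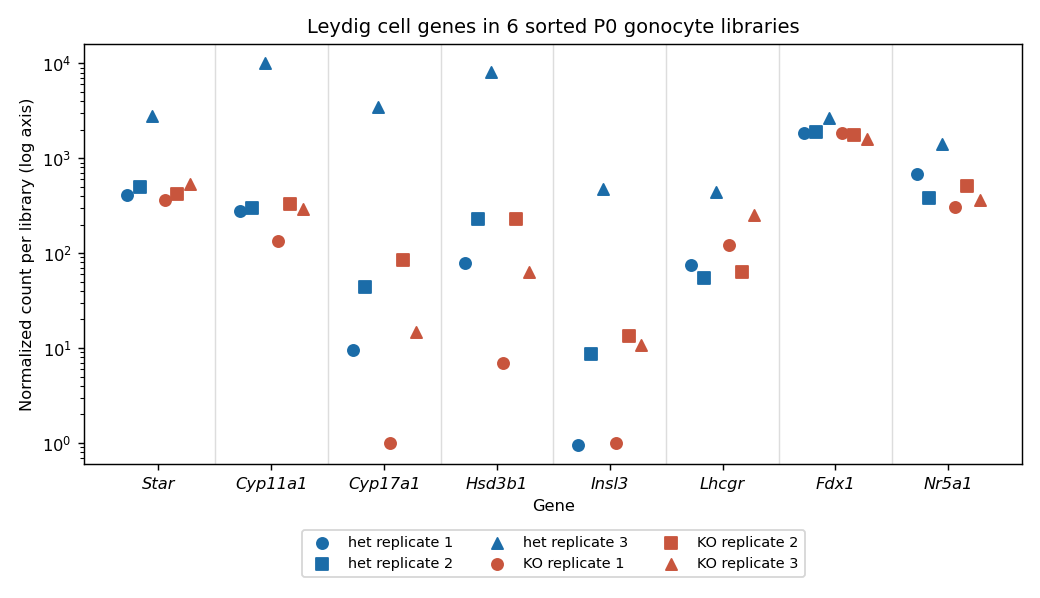
Normalized count of each of the 8 genes (horizontal axis) in each library (vertical axis, logarithmic), with het libraries in blue, KO libraries in red and replicates 1, 2 and 3 as circles, squares and triangles. The blue triangle, het replicate 3, is the highest point for all 8 genes, from 1.39 times the next highest for Fdx1 to 40.9 times for Cyp17a1.

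The low end of the pattern was KO replicate 1, which had the lowest value of 5 of the 8 genes, a share that was not counted over all genes. It held 1 read of Cyp17a1, 1 of Insl3 and 7 of Hsd3b1. The same library held 137 reads of Cyp11a1, 308 of Nr5a1, 369 of Star and 1874 of Fdx1. Cyp17a1, Hsd3b1 and Cyp11a1 were all highest, after het replicate 3, in KO replicate 2 and het replicate 2. Among the 5 libraries other than het replicate 3, the highest value was 33.5 times the lowest for Hsd3b1, 14.1 times for Insl3 and 4.56 times for Lhcgr.

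Per kilobase of annotated exon, the order of the genes changed between libraries. In het replicate 3 Hsd3b1 was first with 4381 normalized counts per kilobase, before Cyp11a1 with 2097, Cyp17a1 with 1253, Fdx1 with 853, Insl3 with 761, Star with 675, Nr5a1 with 331 and Lhcgr with 58.0. In the other 5 libraries Fdx1 was first, with 519 to 614 per kilobase, while Cyp17a1 ran from 0.357 to 30.6 and Cyp11a1 from 28.2 to 69.0. Fdx1 made up 51.3% to 66.5% of the summed normalized counts of the 8 genes in those libraries and 9.004% in het replicate 3, where Cyp11a1 made up 34.2%.

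Summed over the 8 genes and expressed as CPM (normalized counts scaled to an equal library total), heterozygotes had 109, 108 and 1046, and knockouts had 87.9, 116 and 98.8. The het mean was 421 ± 541 (SD, n = 3) and the KO mean 100.9 ± 14.1 (SD, n = 3). Without het replicate 3 the het mean was 109 ± 0.985 (SD, n = 2), so that the distance of KO from het shrank from -320.2 to -7.85 CPM. The larger distance was that of 1 library.

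In the comparison of KO with het, none of the 8 genes passed the test. With limma across 26005 genes, 0 of the 8 had an adjusted p under 0.05, against 0.473% of all genes tested, and 0 of the 8 had an unadjusted p under 0.05, against 6.86%. Their median log2 fold change was -1.26, beside -0.02 over all genes tested, and 7 of the 8 estimates were below 0. For 0 of the 8 did the libraries separate by genotype, which 12.7% of all genes tested did.

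The largest estimate was that of Hsd3b1, with a log2 fold change of -3.44 (95% confidence interval -6.94 to 0.06, limma adjusted p = 0.745). Cyp17a1 had -3.08 (-7.33 to 1.16), Cyp11a1 -1.99 (-4.50 to 0.51) and Insl3 -1.58 (-5.42 to 2.27). These intervals span several doublings on the log2 scale, and none of them leaves out 0. Star had -0.93 (-2.27 to 0.40), Nr5a1 -0.89 (-1.85 to 0.07), Fdx1 -0.28 (-0.77 to 0.21) and Lhcgr 0.01 (-1.65 to 1.68). The limma adjusted p of the 8 genes ran from 0.745 to 0.998. Exact two-sided permutation tests of single genes, on the difference of mean normalized counts, gave p from 0.2 to 0.9. The smallest p that 3 libraries against 3 allow is 0.1. For Cyp11a1, Hsd3b1, Cyp17a1 and Insl3, het replicate 3 sets most of that difference in every split. Their permutation p therefore says little about genotype.

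Without het replicate 3, 6 of the 8 estimates moved toward 0, Insl3 changed sign and Lhcgr moved away from 0. Hsd3b1 went to -1.47 (95% confidence interval -4.14 to 1.19), Cyp17a1 to -0.64 (-3.87 to 2.59), Cyp11a1 to -0.29 (-1.22 to 0.64) and Star to -0.06 (-0.71 to 0.58). Insl3 went to 0.68 (-2.46 to 3.82). Lhcgr went from near 0 to 0.94 (-0.33 to 2.205), with the KO mean 2.22 times the mean of het replicates 1 and 2. The median over the 8 genes was then -0.20, beside -0.03 over all genes tested. The number called stayed at 0 of 8, and 0 of the 8 had an unadjusted p under 0.05, against 0.438% (0.0269% lower in KO) and 6.94% of all genes tested in that limma fit.

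**Figure D2:**
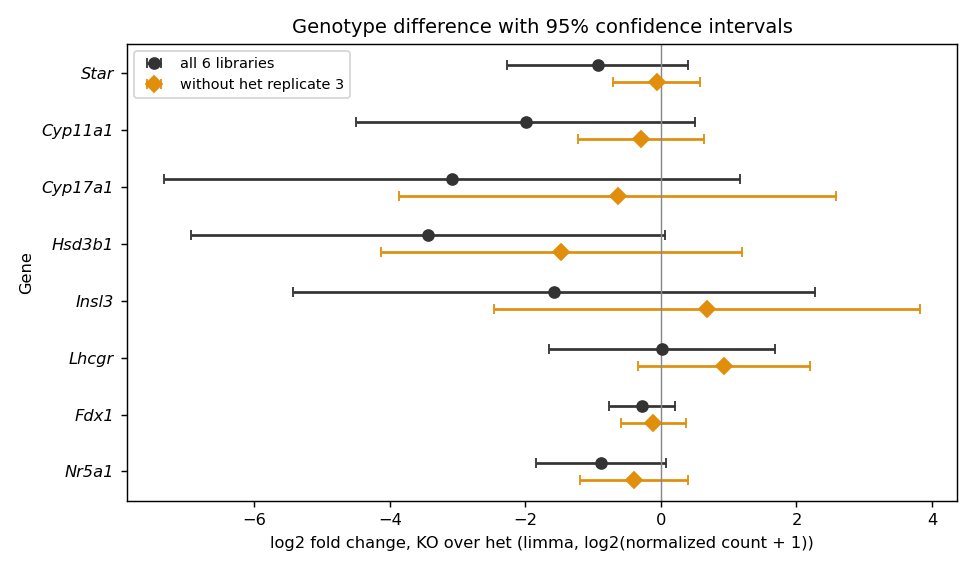
Log2 fold change of KO over het from limma on log2(normalized count + 1) (horizontal axis) for each of the 8 genes (vertical axis), with 95% confidence intervals as bars, from all 6 libraries (black circles) and without het replicate 3 (orange diamonds). All 16 intervals include 0, and the estimate of Cyp11a1 moves from -1.99 to -0.29.

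Count models on the recovered reads gave larger estimates. With edgeR's quasi-likelihood test 6 of the 8 genes had an unadjusted p under 0.05, against 6.57% of all genes tested, and 0 of the 8 an adjusted p under 0.05, against 0.496%. The edgeR log2 fold changes were -5.14 for Cyp17a1, -4.83 for Hsd3b1, -4.25 for Insl3 and -3.82 for Cyp11a1. With edgeR without het replicate 3, 0 of the 8 had an unadjusted p under 0.05, against 6.92% of all genes, and Cyp17a1 and Insl3 changed sign, to 0.34 and 0.79. DESeq2 called 0 of the 8, against 1.79% of all genes, and gave no p-value for Cyp11a1, Cyp17a1, Hsd3b1 and Insl3. It withholds a p-value from genes that have a count it marks as an outlier. Only 14 of the 26005 genes had none, and these 4 were among them.

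The residual SD within genotypes showed how unevenly the 8 genes were affected. On the log2 scale it was 3.63 for Cyp17a1, 3.09 for Insl3, 3.02 for Hsd3b1 and 2.15 for Cyp11a1, beside a median of 0.46 over all genes tested. Without het replicate 3 it was 2.38, 1.59, 2.1 and 0.57 for the same genes, and the median over all genes was 0.41. Fdx1, at 0.22, was below the median with all 6 libraries.

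Partners of the steroid pathway were examined to see which moved with the 8 genes. Of 18 listed partners, 17 were abundant enough to test, and limma called 0 of them, against 0.473% of all genes. An unadjusted p under 0.05 was found for 2 of the 17, against 6.86% of all genes, and 13 of 17 estimates were below 0 (median log2 fold change -0.22). Without het replicate 3 the median was 0.04 and 7 of 17 were below 0. Het replicate 3 was, beside 21.4% of all genes tested, the highest library for 6 of the 18. Those with the largest ratio to the next library were Cyp21a1 with 9.42, Cyp11b1 with 6.19, Hsd17b1 with 2.45 and Hsd17b3 with 2.40, followed by Fdxr.

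Cyp21a1 and Cyp11b1, enzymes of corticosteroid synthesis best known from the adrenal cortex, had low levels outside that library. Cyp21a1 had 13.4, 23.2 and 218 normalized counts in het and 3.96, 4.13 and 0 in KO. All KO values lay under all het values, as for 5.57% of all genes tested, and the gene did not pass (limma adjusted p = 0.348, log2 fold change -3.85 with SE 1.15). The estimate for Cyp21a1 was -2.66 without het replicate 3. Cyp11b1 had 19.1, 10.6 and 345 in het and 17.8, 55.8 and 18.6 in KO, where the genotypes overlapped outside het replicate 3. Fdxr, the reductase that passes electrons to FDX1, had 977, 964 and 2888 in het and 942, 1212 and 858 in KO. Its ratio of het replicate 3 to the next library was larger than that of Fdx1. Hsd17b1 and Hsd17b3, which act on the last step to active sex steroids and are also made by fetal Sertoli cells, had 2015 and 666 in het replicate 3 and at most 821 and 278 elsewhere.

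Other partners had smaller ratios. Cyb5a, which encodes cytochrome b5, was also highest in het replicate 3, at 1.13 times the next library. Por, the reductase that serves microsomal P450 enzymes and the partner with the largest counts, had 3781 normalized counts in het replicate 3, within its range of 2919 to 5751 over the 6 libraries. Scarb1, the receptor that takes up cholesterol from lipoproteins, had 3631, 3305 and 3477 in het and 2702, 1969 and 1459 in KO. Its KO values too lay under all het values, and it did not pass (limma adjusted p = 0.375, log2 fold change -0.81 with SE 0.25). The estimate was also -0.81 without het replicate 3. Hsd3b6 and Srd5a2 also did not overlap between genotypes, at low levels and in the other direction (log2 fold changes 0.84 and 0.62, limma adjusted p 0.828 and 0.908). In all, 4 of the 17 tested partners did not overlap, beside 12.7% of all genes tested.

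Of 16 genes for signals to and from Leydig cells and their transcription factors, 15 were tested, and limma called 0 (0.473% of all genes), with 3 at an unadjusted p under 0.05 (6.86% of all genes). Their median log2 fold change was -0.31, and -0.10 without het replicate 3. Ren1, which encodes renin and is also expressed by Leydig cells, had 44.8, 58.9 and 1924 normalized counts in het and 28.7, 58.9 and 43.1 in KO. Its ratio of 32.7 lay within the range of the steroid enzymes. Gata4 and Gata6, transcription factors of Sertoli and Leydig cells, were 2.25 and 1.84 times the next library. Rxfp2, the INSL3 receptor, was 1.73 times it. Dhh, the Sertoli cell ligand that acts on Leydig precursors, had 606, 382 and 812 in het and 273, 319 and 316 in KO, with no overlap (limma adjusted p = 0.467, log2 fold change -0.92 with SE 0.31). Genotypes did not overlap for 12.7% of all genes tested. Thbs2 and Vcam1, often used as Leydig cell markers, had 717 and 60.5 in het replicate 3, below their highest values of 1636 and 147. Mc2r, the corticotropin receptor of fetal Leydig cells, was listed at 0 there and at 9.66 or less elsewhere. Nr4a1, the gene with the largest counts in this list, ran from 2026 to 5891.

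**Figure D3:**
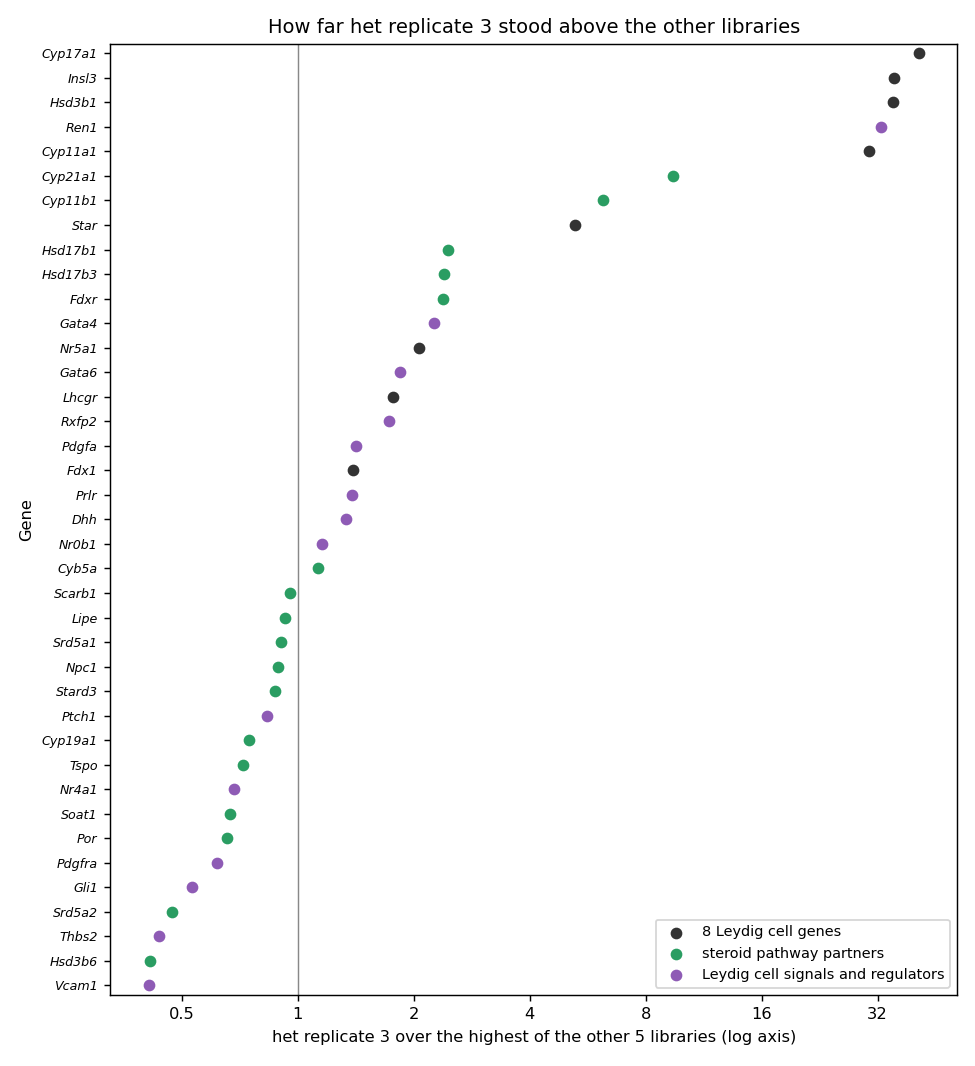
Normalized count in het replicate 3 divided by the highest of the other 5 libraries (horizontal axis, logarithmic) for the 8 Leydig cell genes (black), the steroid pathway partners (green) and the Leydig cell signals and regulators (purple) that were tested and are reported here (vertical axis). Cyp17a1, Insl3, Hsd3b1, Ren1 and Cyp11a1 stand between 30.4 and 40.9, Cyp21a1, Cyp11b1 and Star between 5.24 and 9.42, and the rest at 2.45 or less.

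Markers of other cell types were read in the same way, as summed level in CPM. The 10 Sertoli cell genes summed to 834, 579 and 1392 in het and 414, 528 and 604 in KO. Of the 10, 8 were highest in het replicate 3, beside 21.4% of all genes tested. With limma 0 of the 10 were called, against 0.473% of all genes. An unadjusted p under 0.05 was found for 4 of the 10, against 6.86% of all genes. Of the 10 estimates, 9 were below 0, and the median log2 fold change was -0.69. The median was -0.29 without het replicate 3, with 2 of the 10 at an unadjusted p under 0.05 (6.94% of all genes). Sox9, Amh and Clu, 3 of the 10, did not overlap between genotypes, beside 12.7% of all genes (log2 fold changes -0.70, -1.27 and -0.92, limma adjusted p from 0.253 to 0.579). Inha, with the largest counts, had 15833 in het replicate 3 and at most 8999 elsewhere. The 7 macrophage and leukocyte genes summed to 43.8 there and 20.5 to 31.6 elsewhere, with 3 of 7 highest in it. Among these Csf1r, 1 of the 7, did not overlap (log2 fold change -0.94, limma adjusted p = 0.799), and its estimate without het replicate 3 was -0.47. Mrc1, with the largest counts, ran from 251 to 407. No marker of these lists was at 0 in all 6 libraries.

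The other lists did not single out het replicate 3. Interstitial mesenchyme summed to 236 CPM there and 164 to 251 elsewhere, peritubular myoid cells to 110 and 112 to 129, endothelium to 125 and 125 to 170.1, and erythroid cells to 47.9 and 43.1 to 73.7. Of these 24 genes, 2 were highest in het replicate 3, beside 21.4% of all genes tested. Their genes with the largest counts were Col1a1 (1141 to 3013 normalized counts over the 6 libraries), Des (1318 to 1962), Tek (587 to 2396) and Alas2 (617 to 921). Acta2 and Tek did not overlap between genotypes, as was the case for 12.7% of all genes tested (log2 fold changes 0.27 and 1.257, limma adjusted p 0.896 and 0.201). The 12 germ cell genes summed to 5272 CPM in het replicate 3, near the lowest of the other libraries (5189 to 6962), and 7 of the 12 were lowest in it. How many of all genes were lowest in that library was not counted. The part of these markers in the pattern of the 8 genes was not tested.

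**Figure D4:**
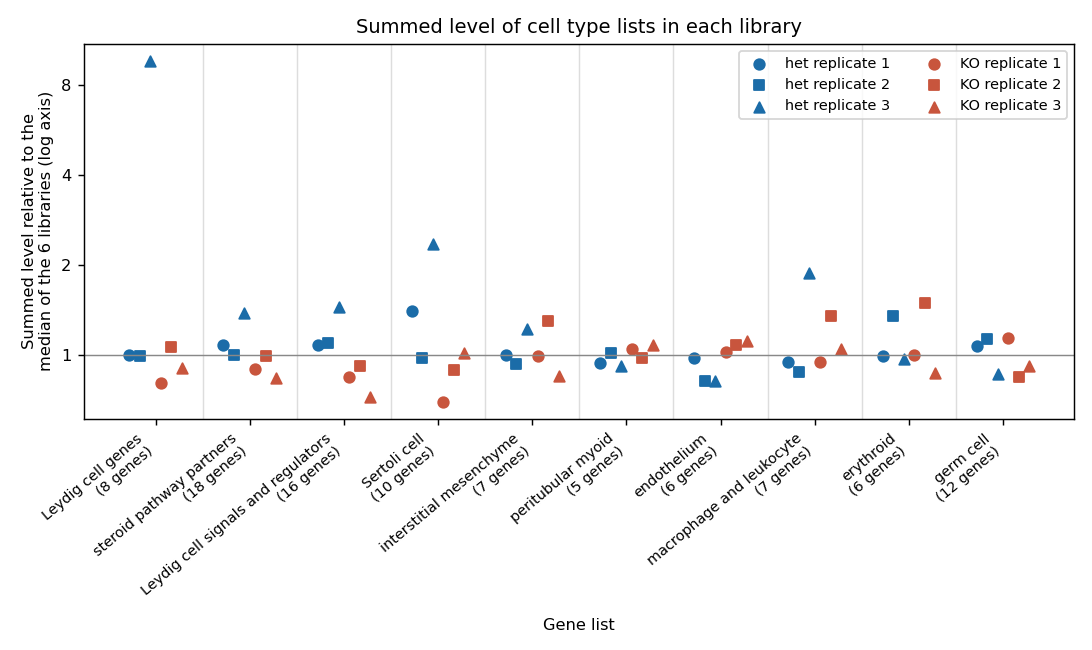
Summed level of each gene list in each library, divided by the median of the 6 libraries for that list (vertical axis, logarithmic), with lists on the horizontal axis, het in blue and KO in red and replicates 1, 2 and 3 as circles, squares and triangles. Het replicate 3 stands apart for the 8 Leydig cell genes, at 9.03 times the next library, and less so for Sertoli cells, at 1.67 times.

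Genes whose levels followed the 8 genes were ranked by Pearson's r over the 6 libraries with the mean centred log2 profile of the 8, among 6568 other genes averaging 10 or more and with a range of at least 2 on the log2 scale. Since 1 library sets most of that profile, r is a description of these libraries, and 68 genes (1.04%) reached 0.9. The 12 highest ran from Ren1 (r = 0.978) to the lincRNA Gm38150 (r = 0.942). Between them were Slc13a2, Il11ra2, Gm37350, Gfral, Hao2, Klhdc8a, Gm36120, Inhbb, Hsd17b1 and Gm48298. Hao2, a peroxisomal oxidase gene, had 49.6, 29.9 and 888 normalized counts in het and 21.8, 61.0 and 54.9 in KO. It lies on chromosome 3 at 14727 bases from Hsd3b1. Inhbb, an inhibin subunit made by Sertoli and Leydig cells, had 1752 in het replicate 3 and 177 to 653 elsewhere.

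Transposable element (TE) copies within the 8 genes gave a second readout. Of 298593 listed copies, 18 overlapped one of the genes, with 10 in Lhcgr, 5 in Fdx1, 2 in Cyp11a1 and 1 in Hsd3b1. Only 5 were abundant enough to test, and limma called 0 of them, against 16.3% of all 49781 copies tested. Of the 5, 0 had an unadjusted p under 0.05 with all libraries, and 1 had one without het replicate 3. The fit without het replicate 3 called 0 of the 5, against 18.6% of all copies. The share of all copies at the unadjusted threshold was not counted. The intronic copy of Hsd3b1 (chromosome 3 from 98858997 to 98859649) had 0, 7.85 and 51.8 normalized counts in het and 27.7, 7.74 and 15.4 in KO. An intronic copy of 6449 bp in Lhcgr had 4.22, 5.61 and 44.1 in het and 14.3, 29.4 and 11.98 in KO. Both were highest in het replicate 3, while the 3 tested copies in exons of Fdx1 were lowest in it or next to lowest.

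The last comparison asked how the library with high levels of the 8 genes bore on the genotype comparison as a whole. With a value at least 4 times that of every other library (1 added to each), het replicate 3 held 41 of the 26005 tested genes. Among these 41, which that choice sets high in 1 het library, were Star, Cyp11a1, Cyp17a1, Hsd3b1 and Insl3. The same count was 31 for KO replicate 2, 24 for KO replicate 3, 3 for het replicate 1, 3 for KO replicate 1 and 0 for het replicate 2. In the other direction, 373 genes in het replicate 3 were at least 4 times lower than in every other library, beside 574 in KO replicate 3, 222 in KO replicate 2 and 37 to 55 in the remaining 3. Of the 35666 genes, 11.1% were listed at 0 in het replicate 3 and 11.7% in KO replicate 3, beside 6.10% to 8.07% in the others. The part of these differences in the pattern of the 8 genes was not tested.

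Across all genes, limma called 112 genes higher in KO and 11 lower with all libraries (0.431% and 0.0423% of those tested). Without het replicate 3 it called 107 and 7, of which 87 and 5 were also called with all 6. edgeR called 121 genes higher and 8 lower with all libraries, and 68 and 7 without het replicate 3. In limma the count of higher genes was lower without each of the other libraries, at 66 and 75 without het replicate 1 or 2, 58 without KO replicate 2, 18 without KO replicate 1 and 15 without KO replicate 3. For lower genes the counts in that order were 1, 3, 4, 1 and 1. With the log2 summed level of the 8 genes as a covariate, 72 genes were higher and 7 lower, of which 62 and 5 were shared. That covariate was 14.84 in het replicate 3 and 11.45 to 11.74 in the other libraries. It thus mostly marks het replicate 3, and this fit does not test a graded level of the 8 genes. Among the 11 lower genes, het replicate 3 was the highest het library for 4 (36.4%), beside 42.0% of all genes tested.

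**Figure D5:**
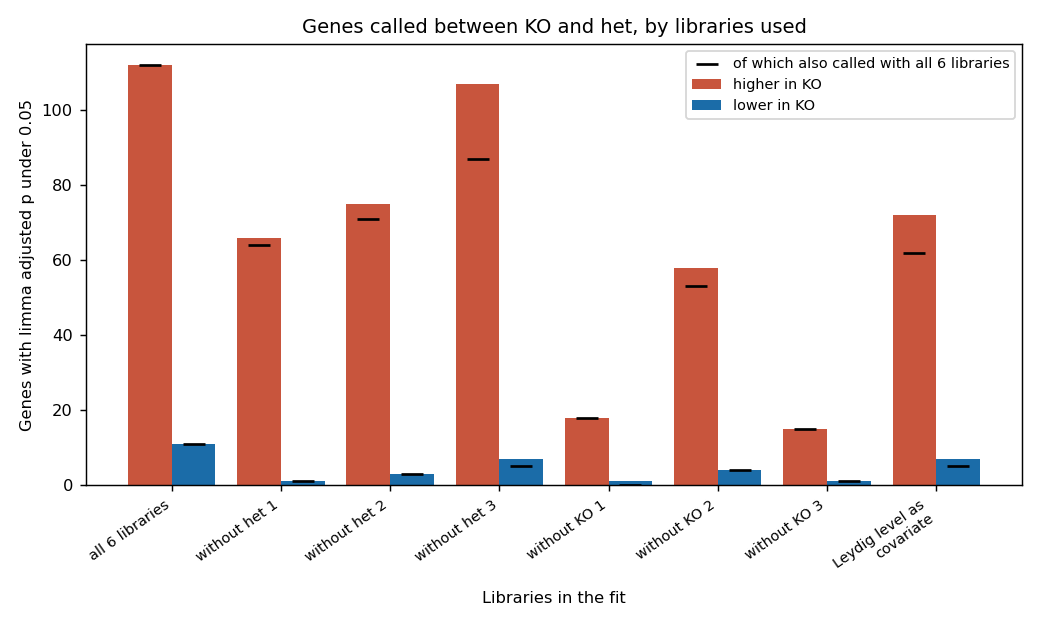
Number of genes with a limma adjusted p under 0.05 (vertical axis) higher in KO (red bars) and lower in KO (blue bars) with all 6 libraries, with each library left out, and with the summed level of the 8 Leydig cell genes as a covariate (horizontal axis); black marks give how many were also called with all 6 libraries. Leaving out het replicate 3 gives 107 and 7 genes, and leaving out KO replicate 3 gives 15 and 1.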

How the data were processed

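RNA-seq of sorted gonocytes at P0 (3 het and 3 KO libraries) was read from 2 deposited tables. The submitters' processing notes name bcl2fastq 2.20, cutadapt 1.18, HISAT2 2.1.0, featureCounts 1.5.2, DESeq2 1.26.0 and mm10/GRCm38, without roles. The values of both deposited tables are a signal: read counts that the authors divided by one size factor per library, as the name of the gene table and the values of both show. All values were whole multiples of one step per library (within 0.01), and reads were recovered from these steps. The step of KO replicate 1 in the gene table is close to 1, so an automatic check could not be applied to it. Strand, multi-mapping and annotation settings are not given in the sources used here. Symbols and positions came from GENCODE M21, and 106 listed genes had no match. Upstream sequences came from RefSeq (GRCm38.p6).

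Genes and TE copies averaging 10 or more normalized counts went into limma 3.58.1 (R 4.3.3; trend, two-sided) on log2(normalized count + 1), which understates folds of low genes, with Benjamini-Hochberg adjustment over all features tested. The limma intervals are at 95%. Filters were applied to the mean over all 6 libraries, also where a library was left out. Alternatives used edgeR 4.0.16 and DESeq2 1.42.0 on recovered reads, other pseudocounts, filters, scalings, library weights, a replicate block, and each library left out. edgeR without het replicate 3 was added after seeing the data. Transcript identity came from BLAST 2.17.0. The fit was tested on simulated counts with the same dispersion for all genes and no outlying library. That run therefore does not cover the pattern described here. The 8 genes and all lists were chosen with earlier results of these data known. From the lists, genes were named for an adjusted p under 0.05, for libraries that did not overlap between genotypes, for the largest counts, or (in both Leydig and steroid lists) for the 4 highest ratios of het replicate 3. Genes named outside this rule were chosen after their values were seen, among them Fdxr, Thbs2, Vcam1 and Mc2r. No pair of libraries was alike enough to be a repeat deposit of one library: the chi-square averaged over genes, 1 by counting alone, was 10.02 or more. The single result of 1 listed gene is not reported here, and the counts over its list include it.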

Additional observations from a re-analysis of the deposited data

How the results depend on the processing

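Over 156 combinations of the 8 genes with alternatives in limma, edgeR and DESeq2, 0 gave a call, with adjusted p from 0.372 to 1.00. No call arose among TE copies within these genes in the 10 alternatives run for them. Those alternatives called 3.20% to 18.6% of all copies tested. DESeq2 gave no p-value for 4 genes, so these have no DESeq2 value here. At an unadjusted p under 0.05, limma had 4 of the 8 genes without het replicate 1, beside 1164 of all 26005 tested. It had 3 without het replicate 2 (1342 of all), 2 without KO replicate 2 (2350) and 3 with the replicate block (1635). No filter, array weights, quantile normalization and scaling to the germ cell list gave 1 each (1590 to 2714 of all tested). The other limma alternatives gave 0. Lhcgr, at 0.01 on the log2 scale, changed sign to -0.0056 with a pseudocount of 10, -0.033 with quantile normalization, -0.054 with scaling to the germ cell list, -0.41 and -0.40 in edgeR with TMM and with median-of-ratios factors, and -0.40 in DESeq2. With each library left out, estimates in limma ran from -1.44 to -0.06 for Star, -2.88 to -0.29 for Cyp11a1, -4.82 to -0.64 for Cyp17a1, -4.81 to -1.47 for Hsd3b1, -3.28 to 0.68 for Insl3, -0.56 to 0.94 for Lhcgr, -0.37 to -0.11 for Fdx1 and -1.34 to -0.40 for Nr5a1. Lhcgr changed sign without het replicate 1 (-0.33), het replicate 2 (-0.56) or KO replicate 3 (-0.49), and Insl3 without het replicate 3 (0.68). In edgeR without het replicate 3, Cyp17a1 went to 0.34, Insl3 to 0.79, Lhcgr to 1.15, Star to -0.05, Cyp11a1 to -0.19, Hsd3b1 to -0.63 and Fdx1 to -0.11. The cause of these changes was not tested.

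The number of all genes higher in KO (112) went to 70 with a pseudocount of 0.1, 177 with a pseudocount of 10, 301 with array weights, 400 in DESeq2, 72 with the covariate and 68 in edgeR without het replicate 3, where edgeR with all libraries gave 121. The number lower (11) went to 5, 12, 47, 65, 7 and 7 in that order, and to 3 in limma without trend. The array weights of het replicates 1, 2 and 3 were 3.32, 2.42 and 0.401. Those of KO replicates 1, 2 and 3 were 1.46, 0.456 and 0.465. With each library left out, the numbers ran from 15 to 107 and from 1 to 7. With the replicate block, 64 were higher and 5 lower in limma, and 38 and 0 in edgeR, while 0 of the 8 genes were called. Same-numbered libraries correlated in their deviations from the group means at 0.138, -0.163 and -0.0438, so the numbers were not taken to pair samples. The summed level of the 8 genes, KO minus het, was -320.2 CPM, -305 without Fdx1, -397 with scaling to the germ cell list, and from -477 to -7.85 with each library left out. Cyp17a1 and Insl3 were near the floor of counting in KO replicate 1, with 1 read each among 32059818 reads in genes. Insl3 also had 1 read in het replicate 1.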
